A study of Mus musculus with 8 samples.

Results

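The beta-arrestin genes Arrb1 and Arrb2 and 8 genes of the RGS family (Rgs1, Rgs2, Rgs3, Rgs10, Rgs14, Rgs16, Rgs18 and Rgs19) were followed in mouse bone marrow derived macrophages. The list was set by gene name, with no cut on measured values. Each gene was read from the probe set with the highest mean over the arrays among those carrying that symbol alone, and 9 of the 10 genes had such a probe set, out of 19938 named genes. Rgs10 was not analysed here. The macrophages had been treated for 6 h with IFN gamma/LPS (LPS, from the outer membrane of Gram-negative bacteria, activates Toll-like receptor 4), with IL4/IL13, or with LPS/IL4/IL13, or had been left untreated. Each of the 4 groups had 2 Affymetrix mouse gene arrays of total RNA. The labels name no strain, allele, age or dose, and do not say whether a group's arrays stand for different animals or cultures. The p-values therefore rest on the spread between these samples alone, and that spread may be technical. No group had LPS alone or IFN gamma alone. The purpose given for the arrays was to define the activation states of the macrophages by their gene expression.

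G protein-coupled receptors, which include the receptors for chemokines, complement fragments and prostaglandins on macrophages, signal by loading G alpha subunits with GTP. RGS proteins shorten that signal by speeding up GTP hydrolysis on the G alpha subunit. Beta-arrestins bind receptors that G protein-coupled receptor kinases have phosphorylated, uncouple them from G proteins, and serve as adaptors for endocytosis and as scaffolds for MAP kinases. Rgs1, Rgs2, Rgs3, Rgs16 and Rgs18 encode proteins of the R4 family, Rgs19 belongs to the RZ family, and Rgs10 and Rgs14 to the R12 family.

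The cells carried macrophage markers in every group: all 8 measured of the list (Adgre1, Csf1r, Cd68, Itgam, Cd14, Fcgr1, Mertk and Lyz2) lay above the median of all genes on the arrays of each group, with a summed signal on the linear scale of 34710 to 35240 under IFN gamma/LPS, 35430 to 35570 under IL4/IL13, 36340 to 37380 under LPS/IL4/IL13 and 40290 to 40550 in untreated cells. Against untreated cells 2 of these markers rose and 5 fell under IFN gamma/LPS, 4 fell under IL4/IL13, and 2 rose and 5 fell under LPS/IL4/IL13. For these and the marker counts below, 51.9%, 20.2% and 45.6% of all named genes passed in the 3 comparisons. The 7 dendritic cell markers summed to 1063 to 1128 under IFN gamma/LPS, 632.7 to 655.7 under IL4/IL13, 1033 to 1064 under LPS/IL4/IL13 and 432.2 to 442.1 in untreated cells, and 4 rose and 1 (Kmo) fell under IFN gamma/LPS, 2 rose under IL4/IL13 and 3 rose under LPS/IL4/IL13. The largest rises were in single genes: Ccr7 (7.65-fold) and Xcr1 (4.76-fold) under IFN gamma/LPS, and Kmo under LPS/IL4/IL13 (4.92-fold) and IL4/IL13 (2.12-fold). Flt3 and Siglech of this list passed under no treatment. The 7 fibroblast markers summed to 808.9 to 849.8, 672.4 to 737.4, 862.4 to 873.7 and 693.5 to 695.8 in the same order, with 2 higher in each group with LPS, and Dcn rose 2.58-fold and 3.35-fold there. The 9 neutrophil markers summed to 812.9 to 822.3, 1007 to 1021, 775.3 to 878 and 1010 to 1034, with 2 lower in each group with LPS, and 1 higher under IL4/IL13 and 3 higher under LPS/IL4/IL13. Of 6 T and NK cell markers 1 rose under IFN gamma/LPS and 1 under IL4/IL13. Of 7 mast cell and basophil markers 2 rose under IFN gamma/LPS and 1 under LPS/IL4/IL13. The part of these marker lists in the results below was not tested. The medians of the 8 arrays lay within 0.1 of each other on the log2 scale, and the number of arrays limits the precision. All values below are log2 signals, and changes are log2 fold changes ± SE from limma with 2 arrays per group. Genes are said to rise or fall at a limma adjusted p under 0.05, with Benjamini-Hochberg adjustment over all 19938. In RNA from whole cultures, fewer cells with a transcript and less of it per cell cannot be told apart.

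Under IFN gamma/LPS 6 of the 9 genes fell (Arrb1, Arrb2, Rgs2, Rgs3, Rgs18 and Rgs19) and 2 rose (Rgs1 and Rgs16), where 51.9% of all named genes passed, 28.4% lower and 23.6% higher. LPS/IL4/IL13 lowered 5 (Arrb1, Arrb2, Rgs2, Rgs18 and Rgs19) and raised 3 (Rgs1, Rgs14 and Rgs16), where 45.6% of all genes passed, 25.4% lower and 20.3% higher. IL4/IL13 lowered 5 (Arrb1, Arrb2, Rgs1, Rgs2 and Rgs18) and raised only Rgs16, where 20.2% of all genes passed, 12.3% lower and 7.83% higher. The median change of the 9 genes was -1.01, -0.57 and -0.55 for IFN gamma/LPS, for IL4/IL13 and for LPS/IL4/IL13, beside 0.11, 0.07 and 0.09 over all genes. At least 2-fold changes that passed were seen in 6, 1 and 5 of the 9 genes, beside 17.1%, 2.45% and 13.9% of all genes. These 3 comparisons share the untreated arrays.

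**Figure D1:**
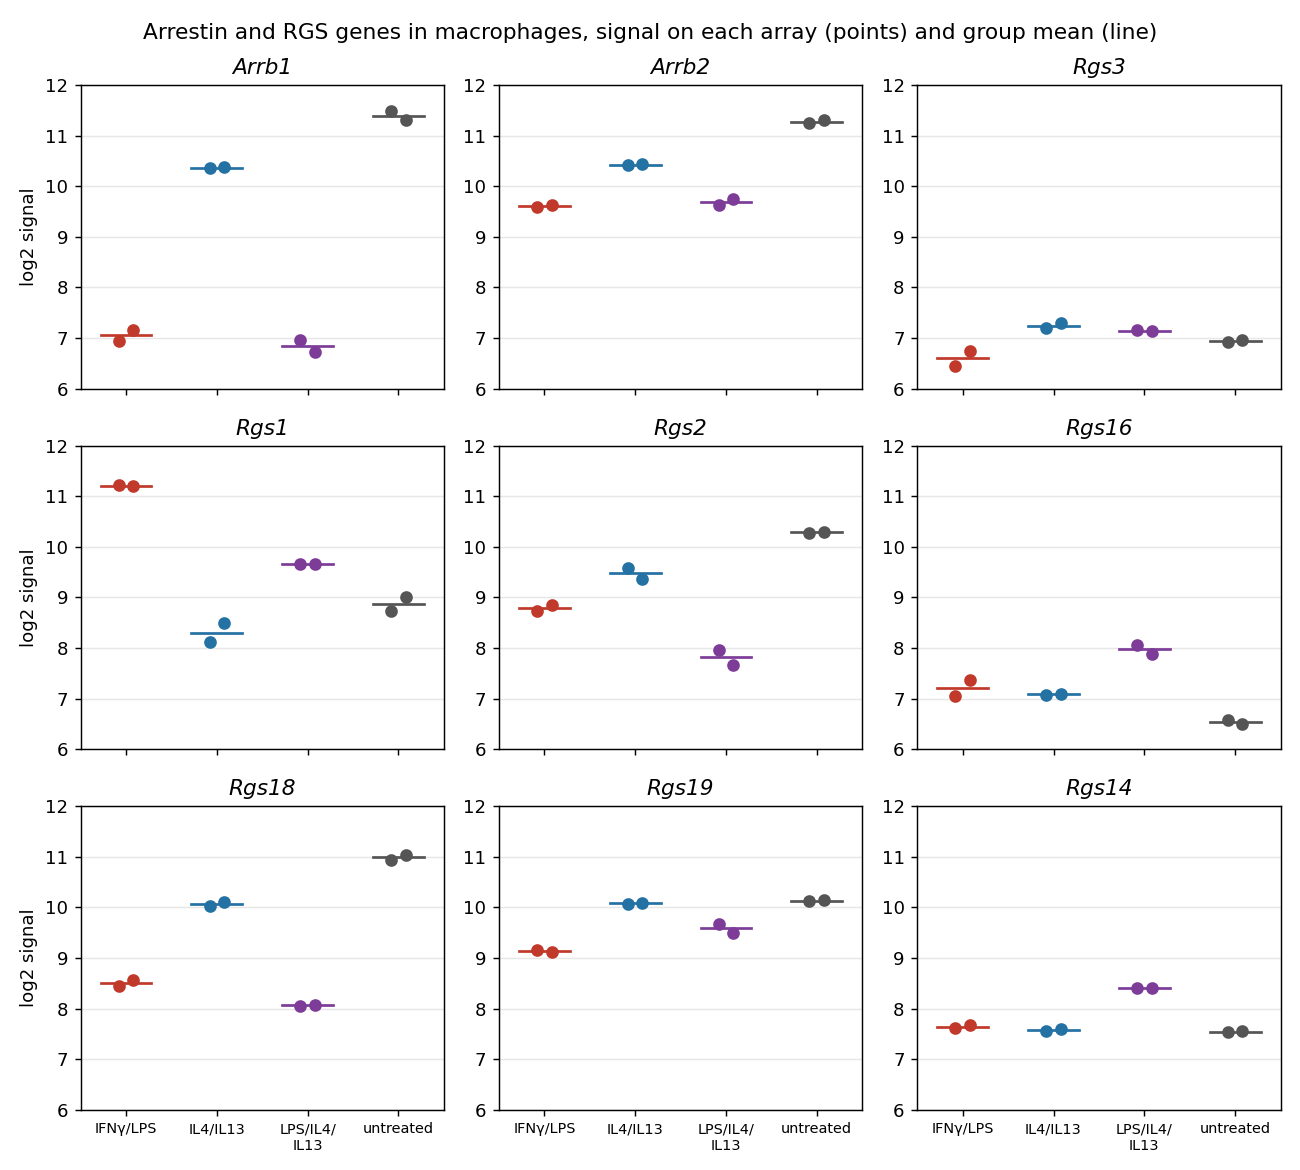
Log2 signal of the 9 measured arrestin and RGS genes on each array (points, 2 per group) with the group mean (line), for the 3 treated groups and the untreated group from left to right. Arrb1 stands between 6.72 and 7.16 on the 4 arrays with LPS and between 10.35 and 11.48 on the other 4, Rgs1 is highest under IFN gamma/LPS, and Rgs14 and Rgs16 are highest under LPS/IL4/IL13.

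Arrb1, which encodes beta-arrestin 1, gave 6.94 and 7.16 under IFN gamma/LPS, 10.35 and 10.38 under IL4/IL13, 6.96 and 6.72 under LPS/IL4/IL13, and 11.48 and 11.31 in untreated cells. All 4 arrays with LPS lay far below the other 4, the IL4/IL13 arrays lay about 1.03 below the untreated ones on average, and the 2 groups with LPS overlapped. Arrb1 was 20.3-fold lower under IFN gamma/LPS (-4.35 ± 0.11, adjusted p = 1.96e-11), the 7th largest fall among all named genes, and 2.04-fold lower under IL4/IL13 (-1.03 ± 0.11, adjusted p = 3.76e-05). In the combination it was 23.5-fold lower than in untreated cells and 11.5-fold lower than under IL4/IL13 (-3.53 ± 0.11, adjusted p = 1.77e-10). Between LPS/IL4/IL13 and IFN gamma/LPS the difference was -0.21 ± 0.11 (95% interval -0.45 to 0.03, adjusted p = 0.26), and after quantile normalization it was -0.31 with an adjusted p of 0.0433.

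Arrb2, the gene of beta-arrestin 2, read 9.58 and 9.62 under IFN gamma/LPS, 10.41 and 10.44 under IL4/IL13, 9.62 and 9.74 under LPS/IL4/IL13, and 11.24 and 11.30 in untreated cells. Its groups stood in the same tiers as those of Arrb1, over a narrower range: untreated cells on top, IL4/IL13 next, and both groups with LPS at the bottom and overlapping. It was 3.18-fold lower under IFN gamma/LPS (-1.67 ± 0.07, adjusted p = 2.12e-09), 1.80-fold lower under IL4/IL13 (-0.85 ± 0.07, adjusted p = 7.10e-06) and 3.01-fold lower under LPS/IL4/IL13 (-1.59 ± 0.07, adjusted p = 4.18e-09). Between the 2 groups with LPS, the difference of the combination from IFN gamma/LPS was 0.08 ± 0.07 (95% interval -0.08 to 0.24, adjusted p = 0.587).

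Of the R4 family genes, Rgs18 and Rgs2 fell under every treatment and were lowest in the combination. Rgs18, best known from platelets and megakaryocytes, had 8.45 and 8.57 under IFN gamma/LPS, 10.03 and 10.11 under IL4/IL13, 8.06 and 8.07 under LPS/IL4/IL13, and 10.94 and 11.04 in untreated cells. No 2 groups overlapped, and all 6 comparisons between groups passed. The falls against untreated cells were 5.58-fold under IFN gamma/LPS (-2.48 ± 0.08, adjusted p = 2.09e-10), 1.89-fold under IL4/IL13 (-0.92 ± 0.08) and 7.59-fold under LPS/IL4/IL13 (-2.93 ± 0.08). The combination lay below IFN gamma/LPS by a smaller step (-0.45 ± 0.08, adjusted p = 0.00234). The 4 measured megakaryocyte and platelet markers (Itga2b, Gp9, Gp5 and Ppbp) had a summed linear signal of 290.7 to 312.1 under IFN gamma/LPS, 303 to 307.6 under IL4/IL13, 313.7 to 333.8 under LPS/IL4/IL13 and 288.3 to 292.6 in untreated cells. Gp9 was higher by 0.41 ± 0.11 in both groups with LPS, and Ppbp was lower under IFN gamma/LPS (-0.51 ± 0.15, adjusted p = 0.0134). The part of these markers in the Rgs18 result was not tested.

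Rgs2, whose protein acts preferentially on the Gq class of G alpha subunits, had 8.74 and 8.84 under IFN gamma/LPS, 9.58 and 9.37 under IL4/IL13, 7.96 and 7.67 under LPS/IL4/IL13, and 10.28 and 10.29 in untreated cells. Here too no 2 groups overlapped and all 6 comparisons passed. Rgs2 was 2.82-fold lower under IFN gamma/LPS (-1.49 ± 0.11, adjusted p = 2.06e-07), 1.75-fold lower under IL4/IL13 (-0.81 ± 0.11, adjusted p = 0.00024) and 5.54-fold lower under LPS/IL4/IL13 (-2.47 ± 0.11, adjusted p = 2.76e-09). The combination was 1.97-fold below IFN gamma/LPS (-0.98 ± 0.11, adjusted p = 4.64e-05) and 3.16-fold below IL4/IL13 (-1.66 ± 0.11, adjusted p = 1.21e-07).

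Rgs16, another R4 gene, ran the other way and was highest in the combination. It read 7.06 and 7.36 under IFN gamma/LPS, 7.08 and 7.09 under IL4/IL13, 8.05 and 7.89 under LPS/IL4/IL13, and 6.57 and 6.49 in untreated cells. Every treated array stood above both untreated arrays, and IFN gamma/LPS and IL4/IL13 overlapped. The rise against untreated cells was 1.60-fold under IFN gamma/LPS (0.68 ± 0.12, adjusted p = 0.000378), 1.47-fold under IL4/IL13 (0.56 ± 0.12, adjusted p = 0.00554) and 2.71-fold under LPS/IL4/IL13 (1.44 ± 0.12, adjusted p = 6.51e-07). The rise under IL4/IL13 no longer passed without untreated replicate 2 (0.52, adjusted p = 0.06). LPS/IL4/IL13 was above IFN gamma/LPS by 0.76 ± 0.12 (adjusted p = 0.000545) and above IL4/IL13 by 0.89 ± 0.12 (adjusted p = 5.87e-05).

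The RefSeq promoter windows (250 bases before to 50 after the start, GRCm38.p6) of Rgs2, lowest in the combination, and of Rgs16, highest in it, are shown to set these opposite patterns side by side, with CCAAT box (CCAAT) and GC box (GGGCGG) matches on either strand in capitals. The Rgs2 window is chr1:144004100-144004399, minus strand, and the Rgs16 window is chr1:153740103-153740402, plus strand.
Rgs2: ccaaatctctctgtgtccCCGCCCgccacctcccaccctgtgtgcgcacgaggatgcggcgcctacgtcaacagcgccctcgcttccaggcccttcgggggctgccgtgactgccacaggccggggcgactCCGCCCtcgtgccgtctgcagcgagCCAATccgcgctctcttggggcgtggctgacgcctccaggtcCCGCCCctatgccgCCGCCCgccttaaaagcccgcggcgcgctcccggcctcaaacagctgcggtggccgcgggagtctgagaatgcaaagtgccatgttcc
Rgs16: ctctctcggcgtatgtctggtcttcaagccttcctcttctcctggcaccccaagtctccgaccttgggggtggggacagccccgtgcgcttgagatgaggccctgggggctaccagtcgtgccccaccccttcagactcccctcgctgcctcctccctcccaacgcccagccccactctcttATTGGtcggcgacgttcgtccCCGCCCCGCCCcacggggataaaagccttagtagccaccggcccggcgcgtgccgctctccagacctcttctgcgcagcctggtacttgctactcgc
A CCAAT match is found in 37.4% and a GGGCGG match in 35.7% of the 32851 promoter windows of the table, and both windows hold both. The Rgs2 window has 1 CCAAT and 4 GGGCGG matches, and the Rgs16 window has 1 CCAAT match and 2 overlapping GGGCGG matches. Neither window has a match, on either strand, to an NF-kB motif (GGG and TTTCC with any 2 bases between, in 1.63% of windows), to a STAT6 motif (TTC and GAA with any 4 bases between, 6.95%), to the cAMP response element TGACGTCA (1.79%) or to TATAAA (13.6%). These matches describe letters only.

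Rgs1, an R4 gene known in B lymphocytes for limiting responses to chemokines, was the gene of the set that passed in opposite directions under different treatments. Its signals were 11.22 and 11.20 under IFN gamma/LPS, 8.11 and 8.49 under IL4/IL13, 9.65 and 9.65 under LPS/IL4/IL13, and 8.73 and 9.01 in untreated cells. The 4 groups did not overlap, with IFN gamma/LPS on top, the combination next, then untreated cells, and IL4/IL13 lowest, and each neighbour in that order differed. Rgs1 rose 5.06-fold under IFN gamma/LPS (2.34 ± 0.12, adjusted p = 9.74e-09) and 1.72-fold under LPS/IL4/IL13 (0.78 ± 0.12, adjusted p = 0.000214), and fell 1.48-fold under IL4/IL13 (-0.57 ± 0.12, adjusted p = 0.00628). The fall under IL4/IL13 did not pass without untreated replicate 2 (-0.43, adjusted p = 0.0902) or without IL4/IL13 replicate 1 (-0.38, adjusted p = 0.0723). The combination was 2.95-fold below IFN gamma/LPS (-1.56 ± 0.12, adjusted p = 2.18e-06) and 2.55-fold above IL4/IL13 (1.35 ± 0.12, adjusted p = 2.21e-06). The 5 measured B lymphocyte markers (Cd79a, Cd79b, Ms4a1, Pax5 and Vpreb3) had a summed linear signal of 264.2 to 268.1 under IFN gamma/LPS, 387.6 to 395.9 under IL4/IL13, 419.9 to 468.8 under LPS/IL4/IL13 and 386.9 to 390.8 in untreated cells. Under IFN gamma/LPS Cd79b fell (-1.12 ± 0.12, adjusted p = 4.33e-06) and Vpreb3 rose (0.35 ± 0.13, adjusted p = 0.0445), and the other 3 did not pass. The part of these markers in the Rgs1 result was not tested.

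Rgs3, the remaining R4 gene, moved little. Its brighter probe set had 6.45 and 6.74 under IFN gamma/LPS, 7.20 and 7.29 under IL4/IL13, 7.15 and 7.14 under LPS/IL4/IL13, and 6.92 and 6.95 in untreated cells. Against untreated cells IL4/IL13 (0.31 ± 0.11, adjusted p = 0.0773) and LPS/IL4/IL13 (0.21 ± 0.11, adjusted p = 0.153) did not pass. Rgs3 did pass as higher under LPS/IL4/IL13 after quantile normalization (0.44, adjusted p = 0.0064). It also passed as higher under IL4/IL13 with a filter on dim genes (0.31, adjusted p = 0.0461) and with only the 4 arrays compared (0.31, adjusted p = 0.0295). The fall under IFN gamma/LPS was 1.27-fold (-0.34 ± 0.11, adjusted p = 0.0252). The fall was lost after quantile normalization (-0.13, adjusted p = 0.407), for the mean over the probe sets (-0.09, adjusted p = 0.464), without either untreated array (adjusted p = 0.0908 and 0.107) and without IFN gamma/LPS replicate 1 (-0.20, adjusted p = 0.234). A second, dimmer probe set of Rgs3 read 6.22 and 6.18 under IFN gamma/LPS, 6.22 and 6.24 under IL4/IL13, 6.08 and 6.16 under LPS/IL4/IL13, and 5.94 and 6.15 in untreated cells. The probe sets disagreed: the dimmer one differed from untreated cells by 0.16 ± 0.11 under IFN gamma/LPS (adjusted p = 0.309 over all probe sets), in the opposite direction. With the same adjustment over all probe sets, the fall of the brighter one did not pass either (-0.34 ± 0.12, adjusted p = 0.0534). The probe sets are assigned to Rgs3 by the platform annotation alone. Whether each one reads Rgs3, and which stretch of the gene, was not checked.

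Rgs1, Rgs2 and Rgs18 lie side by side in the mouse genome, in a row of 5 protein-coding genes that the RefSeq table (GRCm38.p6) orders as Rgs2, Rgs13, Rgs1, Rgs21 and Rgs18. The outer genes of the row, Rgs2 and Rgs18, fell under all 3 treatments, whereas Rgs1 between them rose under both treatments with LPS. Rgs13 gave 4.46 and 3.94 under IFN gamma/LPS, 4.21 and 4.05 under IL4/IL13, 3.95 and 4.06 under LPS/IL4/IL13, and 3.95 and 3.91 in untreated cells. Rgs21 had 3.54 and 3.49 under IFN gamma/LPS, 3.94 and 3.45 under IL4/IL13, 3.54 and 3.87 under LPS/IL4/IL13, and 3.56 and 3.30 in untreated cells. Neither Rgs13 nor Rgs21 passed in any comparison with untreated cells. Their signal was low on every array, at percentile 8.516 or lower among all genes, so a change could be missed.

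**Figure D2:**
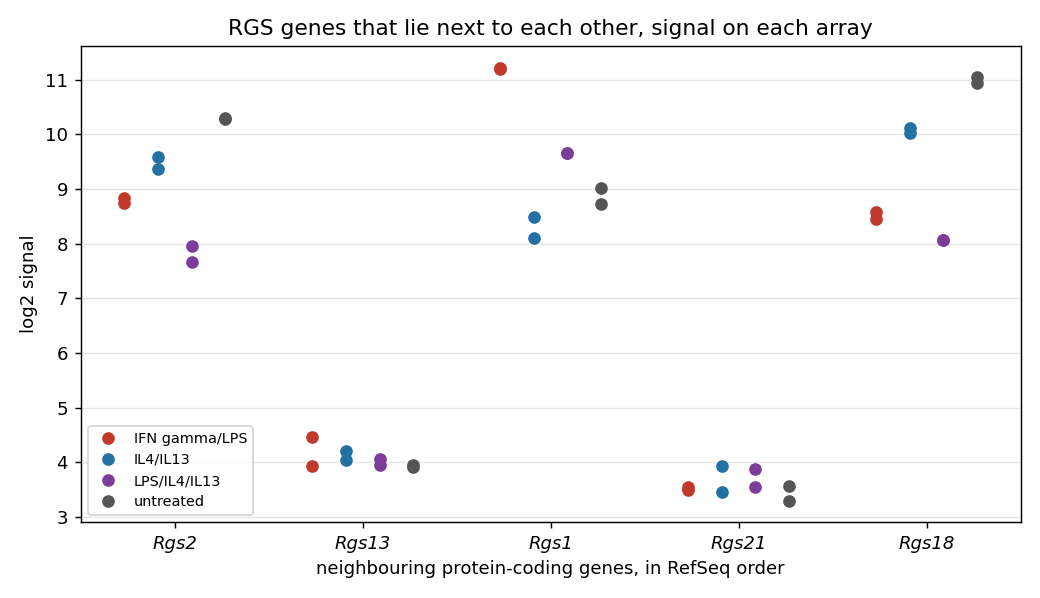
Log2 signal on each array (points, 2 per group) of 5 neighbouring RGS genes in their RefSeq order, coloured by group. Rgs2 and Rgs18 are highest in untreated cells and lowest under LPS/IL4/IL13, Rgs1 is highest under IFN gamma/LPS, and Rgs13 and Rgs21 stay between 3.30 and 4.46 on all 8 arrays.

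Rgs19, the RZ family gene, had 9.15 and 9.11 under IFN gamma/LPS, 10.07 and 10.09 under IL4/IL13, 9.67 and 9.50 under LPS/IL4/IL13, and 10.13 and 10.14 in untreated cells. The IL4/IL13 arrays lay just below the untreated ones, IFN gamma/LPS was lowest, and the combination stood between. It was 2.01-fold lower under IFN gamma/LPS (-1.01 ± 0.08, adjusted p = 4.87e-07) and 1.46-fold lower under LPS/IL4/IL13 (-0.55 ± 0.08, adjusted p = 0.000125). Under IL4/IL13 the difference was -0.06 ± 0.08 (95% interval -0.23 to 0.12, adjusted p = 0.666). The combination was above IFN gamma/LPS by 0.46 ± 0.08 (adjusted p = 0.00158) and below IL4/IL13 (-0.50 ± 0.08, adjusted p = 0.000336). Of the 3 promoter windows of Rgs19, the one at chr2:181691768-181692067, minus strand is shown. That window alone among those of the set, found for 5 of the 10 listed genes, holds a match to the STAT6 motif. The match, in capitals, starts at base 290 of the window, 39 bases after the start site. A STAT6 match is found in 6.95% of all 32851 windows, and this one describes letters only.
Rgs19: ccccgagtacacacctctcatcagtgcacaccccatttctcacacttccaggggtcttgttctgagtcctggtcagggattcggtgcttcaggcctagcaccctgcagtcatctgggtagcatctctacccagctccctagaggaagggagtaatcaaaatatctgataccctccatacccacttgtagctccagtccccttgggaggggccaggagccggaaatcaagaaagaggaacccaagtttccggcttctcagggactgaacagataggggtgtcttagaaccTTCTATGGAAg

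Rgs14, an R12 family gene whose protein also carries a GoLoco motif that binds inactive G alpha i, changed in the combination alone in the deposited scaling. It read 7.61 and 7.68 under IFN gamma/LPS, 7.56 and 7.60 under IL4/IL13, 8.40 and 8.41 under LPS/IL4/IL13, and 7.53 and 7.56 in untreated cells. The 2 arrays of the combination stood above all 6 others, which lay close together. LPS/IL4/IL13 was 1.82-fold above untreated cells (0.86 ± 0.09, adjusted p = 6.68e-06), 1.69-fold above IFN gamma/LPS (0.76 ± 0.09, adjusted p = 7.41e-05) and 1.77-fold above IL4/IL13 (0.83 ± 0.09, adjusted p = 1.15e-05). IFN gamma/LPS (0.10 ± 0.09, 95% interval -0.10 to 0.30, adjusted p = 0.373) and IL4/IL13 (0.04 ± 0.09, 95% interval -0.16 to 0.23, adjusted p = 0.813) did not pass against untreated cells. After quantile normalization Rgs14 rose under IFN gamma/LPS as well (0.51, adjusted p = 0.000416).

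**Figure D3:**
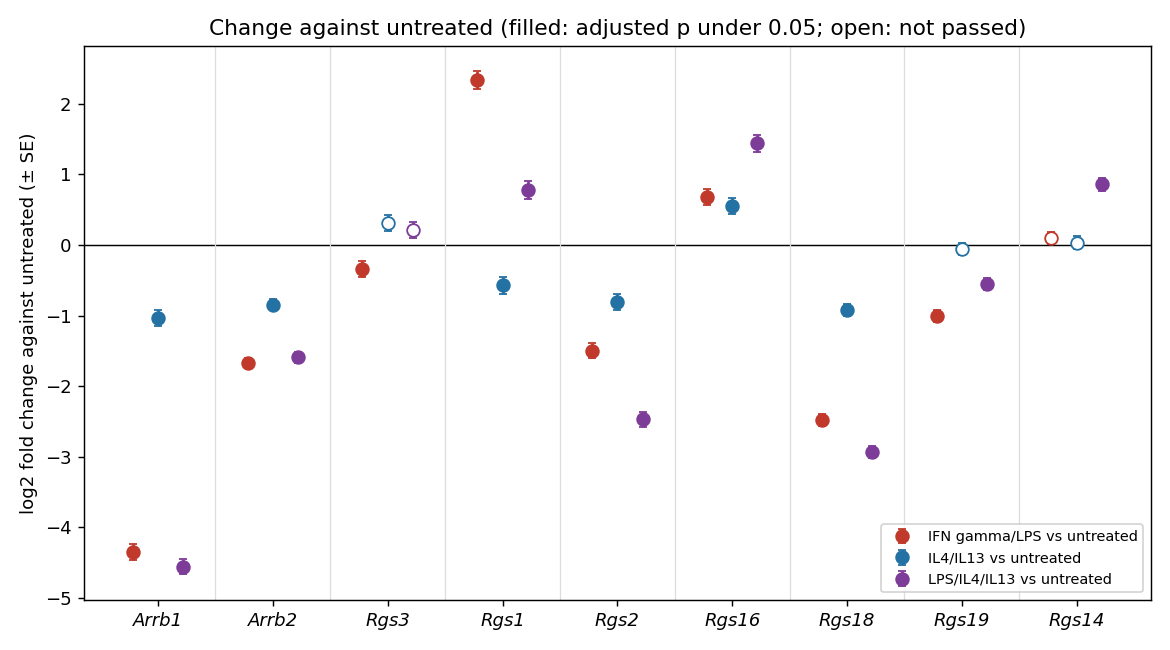
Log2 fold change against untreated cells (± SE, limma, 2 arrays per group) of the 9 genes under each treatment. Filled points passed at an adjusted p under 0.05 and open points did not. Arrb1 changed by -4.35 and -4.56 in the 2 groups with LPS and by -1.03 under IL4/IL13, and Rgs1 by 2.34, 0.78 and -0.57 under IFN gamma/LPS, LPS/IL4/IL13 and IL4/IL13.

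Set directly against the other treatments, the combination sorted the 9 genes into distinct patterns. Against IFN gamma/LPS, 4 were higher in the combination (Rgs3, Rgs14, Rgs16 and Rgs19) and 3 were lower (Rgs1, Rgs2 and Rgs18). Of all named genes 19.7% passed there, 12.1% higher and 7.62% lower. These groups differ both in IFN gamma and in IL4/IL13, whose parts cannot be told apart. Rgs3 was higher by 0.55 ± 0.11 in that comparison (adjusted p = 0.00415), which did not hold for the mean of its probe sets (0.24, adjusted p = 0.154) or without IFN gamma/LPS replicate 1 (0.41, adjusted p = 0.0567). Against IL4/IL13, the combination had Rgs1, Rgs14 and Rgs16 higher and Arrb1, Arrb2, Rgs2, Rgs18 and Rgs19 lower. Of all genes 36.7% passed there, 14.1% higher and 22.6% lower. Rgs2 and Rgs18 were thus below both other treatments, Rgs14 and Rgs16 above both, and Rgs1 and Rgs19 between them. Between IFN gamma/LPS and IL4/IL13, 6 genes were lower under IFN gamma/LPS and Rgs1 alone was higher (7.52-fold, 2.91 ± 0.12, adjusted p = 1.50e-09), where 41.6% of all genes passed, 26.1% lower and 15.5% higher. The 6 were Arrb1, Arrb2, Rgs2, Rgs3, Rgs18 and Rgs19. For Rgs3 this rests on the brighter probe set (-0.65 ± 0.12, adjusted p = 0.00332 over all probe sets). The dimmer one differed by -0.03 ± 0.11 there (adjusted p = 0.89 over all probe sets). Changes of at least 2-fold that passed were seen in Rgs1 alone between LPS/IL4/IL13 and IFN gamma/LPS, in 4 genes between LPS/IL4/IL13 and IL4/IL13, and in 3 between IFN gamma/LPS and IL4/IL13, beside 3.32%, 11.2% and 15.2% of all genes. After quantile normalization Rgs16 (0.40, adjusted p = 0.00597) and Rgs14 (0.35, adjusted p = 0.00573), beside Rgs1, were also higher under IFN gamma/LPS than under IL4/IL13.

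The other genes of the pathway were read from lists chosen for their function. Their counts stand beside the shares of all named genes that passed against untreated cells. These shares were 28.4% lower and 23.6% higher under IFN gamma/LPS, and 12.3% lower and 7.83% higher under IL4/IL13. Under LPS/IL4/IL13 they were 25.4% lower and 20.3% higher. Of the kinases that prepare receptors for arrestin binding, 5 of 6 were measured (Grk2 was not analysed here). Under IFN gamma/LPS 3 fell and 1 rose, under IL4/IL13 2 fell, and under LPS/IL4/IL13 4 fell. Grk5 had 7.22 and 7.04 under IFN gamma/LPS, 6.72 and 6.58 under IL4/IL13, 6.43 and 6.27 under LPS/IL4/IL13, and 8.49 and 8.27 in untreated cells, changes of -1.25 ± 0.12, -1.73 ± 0.12 and -2.03 ± 0.12. Grk6 changed by -1.49 ± 0.14, -0.51 ± 0.14 and -1.31 ± 0.14, and the fall under IL4/IL13 was lost after quantile normalization (-0.40, adjusted p = 0.0649). Grk4 changed by -0.67 ± 0.13 under IFN gamma/LPS and -0.80 ± 0.13 under LPS/IL4/IL13, and after quantile normalization it also fell under IL4/IL13 (-0.44, adjusted p = 0.015). Its signal was low on every array, between 3.84 and 4.74, at percentile 15.16 or lower among all genes. Grk3, named because its direction differed between treatments and chosen after its values were seen, rose under IFN gamma/LPS (0.68 ± 0.14, adjusted p = 0.0016) and fell under LPS/IL4/IL13 (-0.43 ± 0.14, adjusted p = 0.0281). After quantile normalization that fall did not pass (-0.34, adjusted p = 0.0558).

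The alpha-arrestins, distant relatives of the beta-arrestins that act as adaptors for ubiquitin ligases, were listed with the visual arrestins. Of 8 measured genes 4 fell and 2 rose under IFN gamma/LPS. Under IL4/IL13 3 fell and 1 rose, and under LPS/IL4/IL13 4 fell and 1 rose. The shares of all named genes that passed were 51.9%, 20.2% and 45.6%. After quantile normalization 1 rose under IFN gamma/LPS and 2 fell under IL4/IL13. Arrdc3 read 6.32 and 6.48 under IFN gamma/LPS, 8.63 and 8.79 under IL4/IL13, 6.32 and 6.43 under LPS/IL4/IL13, and 10.62 and 10.60 in untreated cells. Its groups stood in the same tiers as those of Arrb1, with falls of 18.5-fold, 3.73-fold and 18.8-fold for the 3 treatments. Txnip, whose protein binds thioredoxin, changed by -1.76 ± 0.10, -0.41 ± 0.10 and -1.53 ± 0.10, and Arrdc4 rose by 1.46 ± 0.11, 0.70 ± 0.11 and 0.44 ± 0.11.

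Of 15 other genes of the RGS families and their membrane anchors, 3 rose under IFN gamma/LPS (Rgs9, Rgs9bp and Rgs4). Under IL4/IL13 0 passed, under LPS/IL4/IL13 1 rose (Rgs9), and none fell in these 3 comparisons. Among all named genes 51.9%, 20.2% and 45.6% passed in them. Many of the listed genes had low signal, where a fall would be hard to see. Rgs5, Rgs7, Rgs13, Rgs17 and Rgs21 lay at percentile 10.34 or lower among all genes on every array, and Rgs4 between 17.07 and 27. Rgs9, an R7 gene known from photoreceptors and striatum, read 7.06 and 7.01 under IFN gamma/LPS, 5.72 and 5.93 under IL4/IL13, 5.89 and 6.16 under LPS/IL4/IL13, and 5.63 and 5.66 in untreated cells, a rise of 1.39 ± 0.12 under IFN gamma/LPS and of 0.38 ± 0.12 in the combination. Rgs9bp, which encodes the anchor of Rgs9, rose by 0.42 ± 0.13 and Rgs4 by 0.36 ± 0.14 under IFN gamma/LPS. After quantile normalization the rise of Rgs4 (0.19, adjusted p = 0.317) and that of Rgs9 in the combination (0.30, adjusted p = 0.0571) did not pass.

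G protein subunit genes were read beside the 51.9%, 20.2% and 45.6% of all named genes that passed for the 3 treatments. Among 12 measured G alpha genes 4 rose and 3 fell under IFN gamma/LPS, 2 rose and 2 fell under IL4/IL13, and 4 rose and 3 fell under LPS/IL4/IL13. After quantile normalization 3 rose and 5 fell under IFN gamma/LPS, and 3 rose and 3 fell under LPS/IL4/IL13. Gna12, a gene of the G12/13 class of G alpha subunits, had 8.40 and 8.49 under IFN gamma/LPS, 11.35 and 11.27 under IL4/IL13, 9.02 and 8.77 under LPS/IL4/IL13, and 12.08 and 11.99 in untreated cells, changes of -3.59 ± 0.09, -0.73 ± 0.09 and -3.14 ± 0.09. Gna13, its close relative, rose in both groups with LPS (1.03 ± 0.06 with IFN gamma and 0.69 ± 0.06 with IL4/IL13) and fell under IL4/IL13 (-0.21 ± 0.06). Gna15, a Gq class gene of blood cells, rose under IL4/IL13 (0.97 ± 0.10) and LPS/IL4/IL13 (1.01 ± 0.10), and its change was -0.06 ± 0.10 under IFN gamma/LPS (adjusted p = 0.636). After quantile normalization the sign of that last change turned and it passed (0.31, adjusted p = 0.0193). Among 16 G beta and gamma genes 6 rose and 5 fell under IFN gamma/LPS, 2 rose and 2 fell under IL4/IL13, and 6 rose and 4 fell under LPS/IL4/IL13. With quantile normalization 4 rose and 5 fell under IFN gamma/LPS, and 3 rose and 2 fell under IL4/IL13. Gnb4, a G beta subunit, read 10.84 and 10.87 under IFN gamma/LPS, 7.77 and 7.88 under IL4/IL13, 10.37 and 10.40 under LPS/IL4/IL13, and 7.28 and 7.18 in untreated cells. It rose 12.3-fold, 1.51-fold and 8.91-fold, whereas Gng2 changed by -1.33 ± 0.10, -1.12 ± 0.10 and -1.74 ± 0.10. Gnb5, the partner of the R7 RGS proteins, fell under IFN gamma/LPS (-1.34 ± 0.12) and LPS/IL4/IL13 (-1.17 ± 0.12).

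Of 13 genes of RGS-homology and GoLoco proteins and their chaperones, 7 fell and 4 rose under IFN gamma/LPS. Under IL4/IL13 3 fell, and under LPS/IL4/IL13 7 fell and 3 rose. Medians were -0.43, -0.19 and -0.28, beside 0.11, 0.07 and 0.09 over all genes. For this list and the next, the shares of all named genes that passed were 51.9%, 20.2% and 45.6%. After quantile normalization the falls numbered 5, 2 and 4. The sorting nexin gene Snx14 changed by -1.80 ± 0.11 under IFN gamma/LPS and -1.90 ± 0.11 under LPS/IL4/IL13. The GoLoco genes Gpsm3 and Gpsm2 went opposite ways in both groups with LPS: Gpsm3 changed by -1.32 ± 0.12 and -1.03 ± 0.12, and Gpsm2 by 0.93 ± 0.14 and 1.30 ± 0.14, for IFN gamma/LPS and LPS/IL4/IL13. Of the 4 phospholipase C beta genes, effectors of Gq, 2 fell under IFN gamma/LPS, 1 fell under IL4/IL13, and 2 fell and 1 rose under LPS/IL4/IL13. Plcb2 changed by -1.64 ± 0.11, -0.68 ± 0.11 and -1.55 ± 0.11 for the 3 treatments. Plcb4 changed by -0.43 ± 0.13 under IFN gamma/LPS and -0.71 ± 0.13 under LPS/IL4/IL13, and Plcb3 rose in the combination (0.59 ± 0.09). After quantile normalization Plcb3 also rose under IFN gamma/LPS (0.36, adjusted p = 0.00622), and Gpsm2 fell under IL4/IL13 (-0.43, adjusted p = 0.0324).

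**Figure D4:**
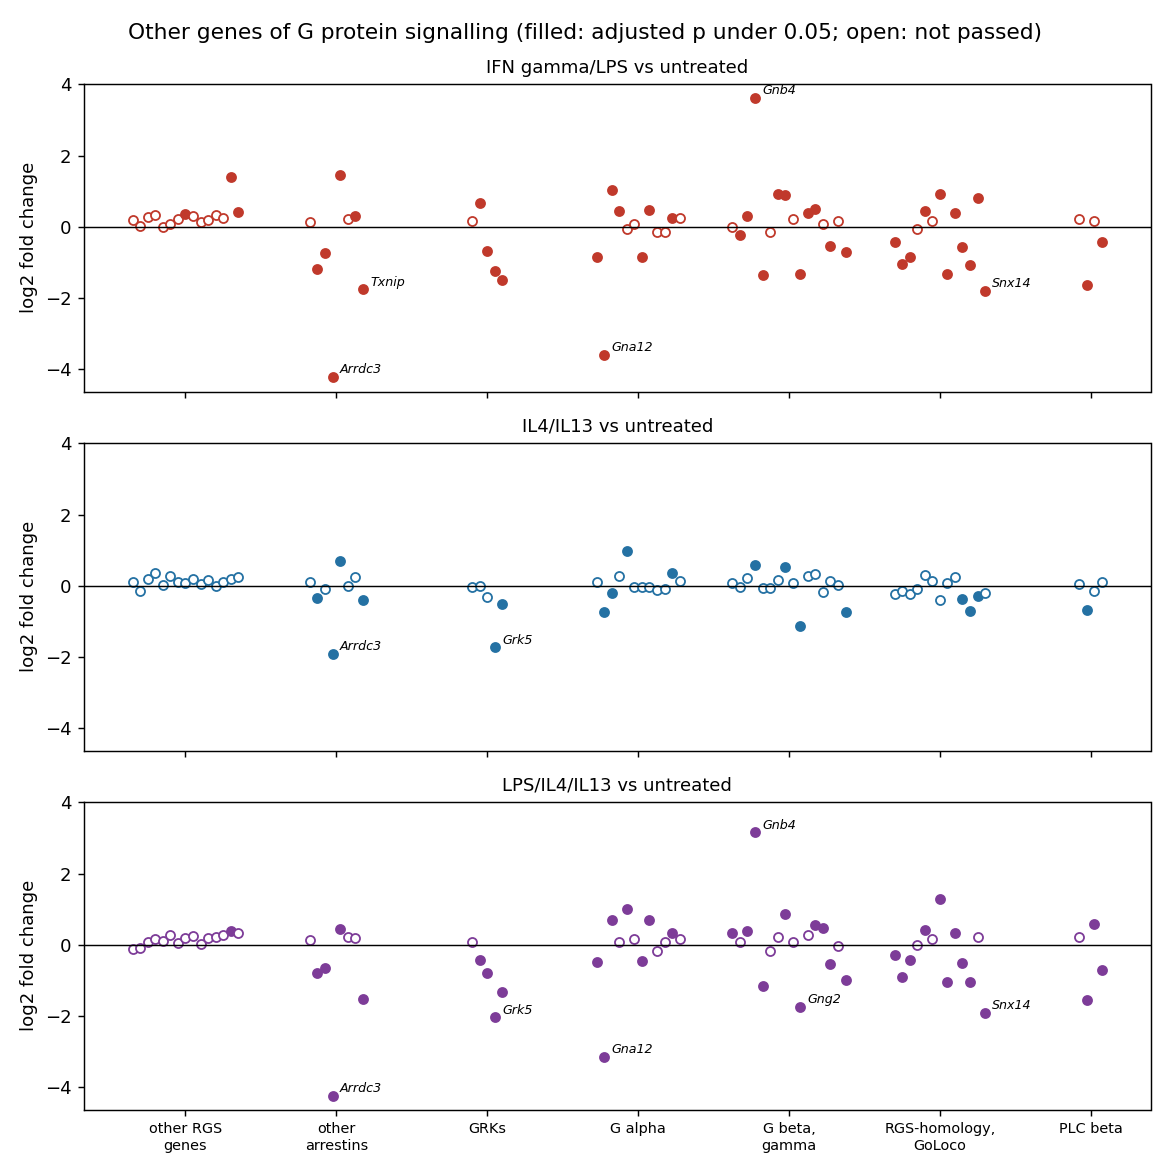
Log2 fold change against untreated cells of the other genes of G protein signalling, 1 point per gene, grouped by list, for IFN gamma/LPS, then IL4/IL13, then LPS/IL4/IL13 from top to bottom. Filled points passed at an adjusted p under 0.05. Arrdc3 (-4.21, -1.90 and -4.24) and Gna12 (-3.59, -0.73 and -3.14) fell and Gnb4 (3.63, 0.60 and 3.16) rose under all 3 treatments, while most points of the other RGS genes are open.

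The named genes whose pattern over the 8 arrays was most like each member, by Pearson's r among 18704 genes, are given as a description. These arrays fall into 4 groups, so r mainly compares group means. Closest to Arrb1 were Cpt1a (r = 0.9997), which encodes the mitochondrial carnitine palmitoyltransferase, Man2a2 and Tor4a. Cpt1a averaged 9.09 under IFN gamma/LPS, 10.47 under IL4/IL13, 9.01 under LPS/IL4/IL13 and 10.92 in untreated cells. Nearest to Arrb2 were Slc15a4 (0.9982), an endolysosomal transporter gene, Fam214a and Arhgap19, and nearest to Rgs18 were Susd3 (0.9983), Stxbp5 and the transcription factor gene Mef2c. Rgs2 was closest to Cdkn1b (0.9978), the gene of a cyclin-dependent kinase inhibitor, then Nlrp1b and H2aw. Rgs19 was most like Cd84 (0.9978), Lgals3 and Cnih1, and Rgs1 most like Arhgef3 (0.9914), Rab43 and the ADP receptor gene P2ry13. Rgs14 was most like the cytokine gene Il19 (0.9967), then Bid and Urah. Il19 averaged 6.12 under IFN gamma/LPS, 5.65 under IL4/IL13, 10.3 under LPS/IL4/IL13 and 5.41 in untreated cells, so it too stood highest in the combination. Rgs16 was closest to Asb6 (0.9948), Insl6 and Rnps1. Rgs3 had the loosest best match, Srebf1 (0.9771), a regulator of lipid synthesis.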

How the data were processed

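Total RNA of 8 samples (RNA integrity above 9, biotin label, per the labels' protocols) was measured on 1 array each. The deposited values are log2 signal, 1 per probe set and array. Their range, 1.46 to 13.71, is that of a log2 scale, although the labels name a MAS5 signal, and no source used here gives the authors' background correction or normalization. There are no detection calls, so no level marks absence. Gene symbols came from the platform annotation (21789 of 35556 probe sets with 1 symbol, 1621 with several, 12146 with none), checked through Entrez identifiers against the RefSeq gene table of GRCm38.p6, in which 21698 were found and 0 symbols changed. The annotation lists no probe set under Rgs10.

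One limma 3.58.1 model in R 4.3.3 covered the 4 groups and 6 comparisons (lmFit, contrasts, eBayes with a mean-variance trend, 4 residual and 7.55 prior degrees of freedom), with Benjamini-Hochberg adjustment over 19938 named genes and no filter on dim genes. Members and lists were chosen with earlier results of these data known. Pathway genes were named by the largest called change against untreated cells, up to 3 per list, and the 3 genes most like each member by Pearson's r without predicted genes. Promoter windows are from RefSeq and were found for 5 of the 10 listed genes. The CCAAT, GC box and TATA box motifs were added after the windows were seen. Alternatives tried were median centring, quantile normalization, a filter at the 40th percentile of mean signal, other variance models, only the 4 arrays compared, a replicate block, the mean over probe sets, adjustment over all probe sets, each array left out, and a test against a 1.5-fold change. Deviations of same-numbered arrays from their group means had correlations across genes between -0.358 and 0.217. With 2 arrays per group the deviations are exact opposites, so these values cannot decide whether the numbers pair the samples.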

Additional observations from a re-analysis of the deposited data

How the results depend on the processing

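Across 972 recalculations of the 54 member changes, 930 kept their direction and their side of the threshold, 31 no longer passed, 7 newly passed and 4 reversed in sign. The 4 reversals concern changes that passed in neither form: Rgs19 under IL4/IL13 against untreated (0.0078) and Rgs3 under LPS/IL4/IL13 against IL4/IL13 (0.10) after quantile normalization, Rgs14 under IL4/IL13 against untreated after median centring (-0.015), and Rgs16 under IFN gamma/LPS against IL4/IL13 without IFN gamma/LPS replicate 2 (-0.025, with a range of -0.025 to 0.275 over the arrays left out). The causes were not tested.

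Members higher under IFN gamma/LPS than under IL4/IL13 numbered 3 after quantile normalization, against 1. Members higher under IL4/IL13 than in untreated cells numbered 2, against 1, with the filter on dim genes and with only the 4 arrays compared, and 0 to 1 with each array left out (0 without untreated replicate 2). All genes called between LPS/IL4/IL13 and IFN gamma/LPS numbered 2603 with only the 4 arrays compared, against 3926. With each array left out, all genes called under IL4/IL13 against untreated ranged from 2063 to 4876, against 4020: 2063 without untreated replicate 1, 2380 without untreated replicate 2 and 2244 without IL4/IL13 replicate 2. Median centring put 28.6% and quantile normalization 45.1% of those calls higher, against 38.8%.

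The test against a 1.5-fold change asks for more and called fewer. Members higher and lower numbered 1 and 5 under IFN gamma/LPS against untreated, 0 and 2 under IL4/IL13 against untreated, 0 and 1 for LPS/IL4/IL13 against IFN gamma/LPS, and 1 and 3 for LPS/IL4/IL13 against IL4/IL13. All genes called numbered 3924, 505 and 3185 against untreated for IFN gamma/LPS, for IL4/IL13 and for LPS/IL4/IL13, then 677 and 2597 for the combination against IFN gamma/LPS and IL4/IL13, and 3595 between IFN gamma/LPS and IL4/IL13.

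With the replicate number as a block, all 54 member changes kept their call, and the genes called numbered 10432, 3978 and 9138 against untreated in the same order. The labels do not say that the numbers pair the samples, and the data cannot decide it. With 2 arrays per group, no detection calls and an unstated normalization, small changes such as those of Rgs3 are the least certain.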
